A study of Mus musculus with 24 samples.

Results

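The genes described here are 10 that encode heat shock proteins and the cochaperones that work with them, out of 49172 mouse genes to which the deposited transcripts were assigned. They are Hsph1, Hspa1a, Hspa1b, Hspa8, Hsp90aa1, Hspb1, Hspd1, Hspe1, Dnajb1 and Bag3. They were chosen by name and function, with earlier results of these data known. RNA was sequenced from Ocy454 cells, an established mouse osteocytic line. The cells had received vehicle, the lipid mediator lysophosphatidic acid (LPA), the hormone 1,25-dihydroxyvitamin D (1,25D), or the 2 agents together, for 2 h or 8 h. Each of the 8 groups held 3 libraries, 24 in all, so every mean and SD is over n = 3. All groups share the same line, known to be conditionally immortalised through a temperature-sensitive large T antigen. The sources used here give no dose, passage or culture temperature. Separate cultures are not stated for the libraries of a group, and the p-values then cover only the spread between these libraries, which may be technical.

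Heat shock proteins are molecular chaperones, which bind unfolded or partly folded proteins and keep them from aggregating. HSP70 proteins bind and release their clients in a cycle driven by ATP, in which J-domain proteins such as DNAJB1 start ATP hydrolysis and exchange factors such as HSPH1 and BAG3 release the nucleotide. HSP90 finishes the folding of many kinases and steroid receptors, small heat shock proteins such as HSPB1 hold unfolded clients, and HSPD1 with its lid HSPE1 forms the folding chamber of the mitochondrial matrix. Under heat or other proteotoxic stress, heat shock factor 1 binds inverted repeats of the unit GAA in the promoters of many of these genes and raises their transcription.

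Each library held between 32.96 and 33.84 M estimated counts, and mitochondrially encoded genes took 9.01% to 16.9% of them. The lowest mitochondrial share was in vehicle replicate 1 at 2 h and the highest in vehicle replicate 2 at 8 h, a pair of libraries that recur below. Cyp24a1 encodes the vitamin D 24-hydroxylase and is known to be induced through the vitamin D receptor, and its counts do not match the single-treatment labels. At 8 h it had 25 to 48 counts in each library labelled LPA and 24 to 35 in each given both agents, against 0 or 1 in each vehicle library and each library labelled 1,25D. Vdr itself stood at 254 ± 6.88 CPM, counts scaled to library size, in the libraries labelled LPA at 8 h and at 72.3 ± 1.91 CPM in those labelled 1,25D, with 125 ± 11.8 CPM in vehicle (mean ± SD). Groups follow the sample titles. The names of the deposited tables carry the single-treatment letters the other way round, so the libraries labelled LPA by title have the table code D and those labelled 1,25D have the code L. Every single treatment is therefore written as labelled LPA or labelled 1,25D, and its directions hold for the label only. Exchanging these labels would change neither the both-agent values against vehicle nor the interaction. Of 11 osteocyte markers, 5 reached a median of 1 TPM, a level per transcript length, among them Pdpn at 57.8 and Dmp1 at 1.03, while Sost, Mepe, Dkk1, Fgf23, Ptprz1 and Phex lay below it. Of 8 osteoblast markers, 5 reached a median of 1 TPM, led by Col1a1 at 726, Spp1 at 548 and Col1a2 at 410, while Ibsp, Sp7 and Alpl lay below it. Summed over the list, osteocyte markers reached 147 to 349 TPM and osteoblast markers 697 to 4514 TPM, and within the latter Spp1 went from a mean of 203 TPM in vehicle at 2 h to 3270.3 TPM with both agents at 8 h. Summed likewise, markers of adipocytes stayed at or under 0.975 TPM, of chondrocytes at or under 0.774 and of endothelium at or under 1.69. Those of macrophages and blood summed to 17.2 to 27.1 TPM, mostly from Cd68 and Lyz2 with medians of 14.1 and 5.47. Ptprc, Adgre1, Csf1r and Hbb-bs had medians below 1 TPM. Those of skeletal muscle summed to 1.39 to 3.37 TPM, and only Acta1 reached a median of 1 TPM there. The part of other cell types in the results was not tested.

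The promoters of several of these genes hold the repeats that heat shock factor 1 is known to bind. Stretches are shown from members whose windows hold such repeats and whose levels moved, with Hspa1a as the near-identical copy of Hspa1b. Dnajb1 also moved and is not shown, since its windows held none. The 250 bases before each annotated start were searched on both strands for GAANNTTC and TTCNNGAA, each a pair of GAA units facing opposite ways. The RefSeq promoter table on build GRCm38.p6 matched 8 of the 10 members with 11 windows, and Hspa8 and Hsp90aa1 are named only. A pair was found in 7 of the 11 windows, which belong to 6 of the 8 genes, against 12.8% of 32851 windows for all genes. The 7 are not independent, since Hspd1 and Hspe1 share 1 run, Hspa1a and Hspa1b are near-identical copies, and Hsph1 has 2 of the windows. The genes were picked as heat shock genes, many of them known to carry such repeats, so the share is a description and no test. Capitals mark the pairs, and in overlapping pairs the whole run.
Hspd1/Hspe1: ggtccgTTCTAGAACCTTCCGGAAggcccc
Hsph1: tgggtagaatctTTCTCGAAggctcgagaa
Hspb1: gaGAAGTTTCcagatgggggcaGAACCTTC
Hspa1b: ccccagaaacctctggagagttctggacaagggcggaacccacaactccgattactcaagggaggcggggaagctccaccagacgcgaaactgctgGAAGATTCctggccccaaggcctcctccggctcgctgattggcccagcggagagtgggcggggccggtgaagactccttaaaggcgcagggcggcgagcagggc
Hspa1a: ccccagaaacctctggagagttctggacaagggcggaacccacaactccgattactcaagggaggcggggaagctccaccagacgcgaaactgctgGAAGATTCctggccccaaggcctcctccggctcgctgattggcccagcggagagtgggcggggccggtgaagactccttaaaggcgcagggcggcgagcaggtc

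The Hspd1/Hspe1 stretch lies at chr1:55088053-55088082 on the plus strand, between the start of Hspe1 and that of Hspd1. These 2 genes are read in opposite directions from starts with 215 bases between them. A second annotated start of Hspd1, at chr1:55088243, lies past the start of Hspe1, and its window held no pair. The stretch holds 4 units in a row, TTCNNGAA followed after any 2 bases by TTCNNGAA. This run was found in the 250 upstream bases of 4 windows, or 0.0122% of all, with 1 window each of Hspd1 and Hspe1 among them. The Hsph1 stretch is at chr5:149636352-149636381 on the minus strand and holds 1 pair, and the Hspb1 stretch at chr5:135887800-135887829 on the plus strand holds 2 pairs that do not overlap. Hspa1b at chr17:34959239-34959438 and Hspa1a at chr17:34972157-34972356, both on the minus strand, are the 200 bases before each start, with 1 pair each at the same place. They differ at 1 base, G199T, with Hspa1b as the reference and positions counted from 1 at the 5′ end of the print. None of the windows of Bag3 and Dnajb1 held a pair. A match is a description of the letters in these windows, and binding was not measured.

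The 10 genes spanned a wide range of abundance. Per length, over the 24 libraries, Hspa8 had a mean of 2887 TPM and Hsp90aa1 432 TPM. Hspe1 followed at 131 TPM and Hspd1 at 105 TPM. The order went on with Dnajb1 at 61.9 TPM, Hspb1 at 48.4, Bag3 at 38.9 and Hsph1 at 37.9. Hspa1b stood far lower, at 3.45 TPM, and Hspa1a at 0.0210 TPM. The stress-inducible HSP70 genes were thus the scarcest of the 10. Bag3 and Hsph1 are neighbours whose library ranges overlapped, at 12.9 to 60.6 TPM and 27.3 to 49.6 TPM. Hspa8, which encodes the constitutive cytosolic HSC70, alone took 0.289% of all TPM, but 74.0% of its TPM came from 1 annotated transcript that held 43.2% of its counts, so its rank per length leans on that transcript.

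Hspa1a and Hspa1b encode near-identical inducible HSP70 proteins, and their transcripts share 63.8% and 67.6% of their 31-base words, so the split of reads between them is uncertain. Hspa1a had 0 to 8 counts in a library and 42 in all, against 78 to 446 counts in a library for Hspa1b. It did not pass the filter on low counts, which left 9 members among 16424 tested genes. The sum of the pair was tested in a fit of its own, and its values differ little from those of Hspa1b.

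With both agents, 4 of the 9 tested members rose at 2 h and 4 rose at 8 h, and none fell. The risers at 2 h were Hsph1, Hspa1b, Hsp90aa1 and Hspd1, and those at 8 h were Hsph1, Hspa1b, Hspd1 and Hspe1. Calls rest on edgeR's quasi-likelihood test with Benjamini-Hochberg adjustment over all tested genes and a threshold of 0.05. Of all genes, 19.9% were called with both agents at 2 h, 9.88% in the higher direction, and 16.8% at 8 h, with 9.54% higher, all as shares of the genes tested. The libraries of the 2 groups did not overlap for 7 of 9 members at 2 h and 3 of 9 at 8 h, against 35.2% and 26.4% of all genes. Overlap is judged in CPM here and below, and some groups that lay apart in CPM overlapped in TPM. The median log2 fold change of the 9 members was 0.30 at 2 h and 0.28 at 8 h, against 0.0044 and 0.025 over all tested genes.

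The single treatments gave 1 call among the members at 2 h and 5 at 8 h. In the libraries labelled 1,25D, 1 member rose at 2 h (Dnajb1; 13.9% of all genes were called, 7.06% higher) and 1 at 8 h (Hspa1b; 16.2%, 7.89% higher), shares close to those of all genes. In the libraries labelled LPA, 0 of 9 passed at 2 h, where 0.785% of all genes did. None reached an unadjusted p under 0.05 there, and DESeq2 called 0 as well. At 8 h, 4 members passed in the libraries labelled LPA, where 12% of all genes did, 6.62% higher and 5.38% lower: Hsph1 and Hspa1b rose while Hspb1 and Dnajb1 fell. In 5 of 9 members these libraries did not overlap vehicle, against 28.3% of all genes. The median over the 9 members was −0.22 in that comparison and 0.0026 over all genes.

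**Figure D1:**
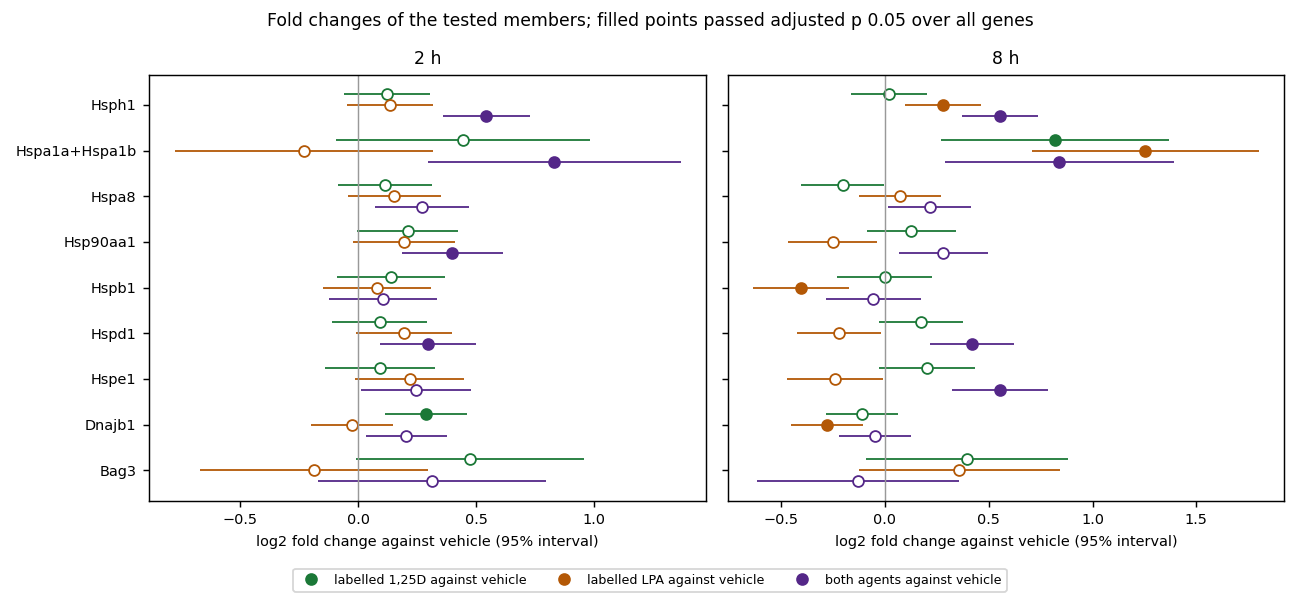
Log2 fold change against vehicle of each tested member and of the summed HSP70 pair, with 95% intervals, at 2 h (left) and 8 h (right) for the 3 treatments. Filled points passed the adjusted threshold: with both agents Hsph1 lies at 0.54 and 0.55, while Hspa1a+Hspa1b reaches 1.25 in the libraries labelled LPA at 8 h.

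Hsph1 encodes HSP110, a nucleotide exchange factor of HSP70 that also holds unfolded proteins. It was 64.0, 71.8 and 76.6 CPM in vehicle at 2 h and 92.9, 106 and 111 CPM with both agents. The libraries labelled 1,25D had 76.6, 86.6 and 68.2 CPM, and those labelled LPA 78.8, 79.3 and 75.0 CPM. All 3 libraries given both agents lay above every other library at 2 h. The rise over vehicle was 0.54 ± 0.09 (log2 fold change ± SE, adjusted p = 1.0e-04, edgeR's quasi-likelihood test with Benjamini-Hochberg adjustment, as for every adjusted p below), or 1.46-fold, and higher in 3 of 3 libraries. Against the libraries labelled LPA the difference was 0.41 ± 0.09 (adjusted p = 0.0020), and 2 members passed in this comparison (Hsph1 and Hspa1b), where 18.7% of all genes did. Against the libraries labelled 1,25D it was 0.42 ± 0.09 (adjusted p = 0.018), the 1 member called, where 0.767% of all genes were. This last call was lost without either of 2 libraries labelled 1,25D or either of 2 given both agents, with adjusted p from 0.074 to 0.196, and with length-scaled counts at 0.051.

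At 8 h Hsph1 again stood highest with both agents, at 102, 118 and 102 CPM. Vehicle had 70.6, 75.7 and 72.8 CPM, and the libraries labelled 1,25D 73.7, 75.6 and 73.1 CPM. The libraries labelled LPA lay between, at 93.2, 81.6 and 91.0 CPM, with no overlap on either side in CPM. In TPM they stood at 39.9 to 45.0 and overlapped those given both agents, at 41.3 to 49.1. The rise with both agents was 0.55 ± 0.09 (adjusted p = 8.2e-05) over vehicle and 0.53 ± 0.09 (adjusted p = 2.4e-04) over the libraries labelled 1,25D. The rise in the libraries labelled LPA over vehicle was smaller, 0.28 ± 0.09 (adjusted p = 0.042), and it passed the threshold narrowly: 9 of 12 alternatives ended the call, with each of the 6 libraries left out among them, at adjusted p from 0.059 to 0.152. Both agents exceeded the libraries labelled LPA by 0.28 ± 0.09 (adjusted p = 0.027), a call also lost without labelled LPA replicate 2 or 3 or both-agent replicate 2 (0.141, 0.052 and 0.175). The effect of both agents on Hsph1 differed by 0.01 between 8 h and 2 h (95% interval −0.25 to 0.27). In vehicle it changed by 0.05 from 2 h to 8 h (−0.14 to 0.23).

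**Figure D2:**
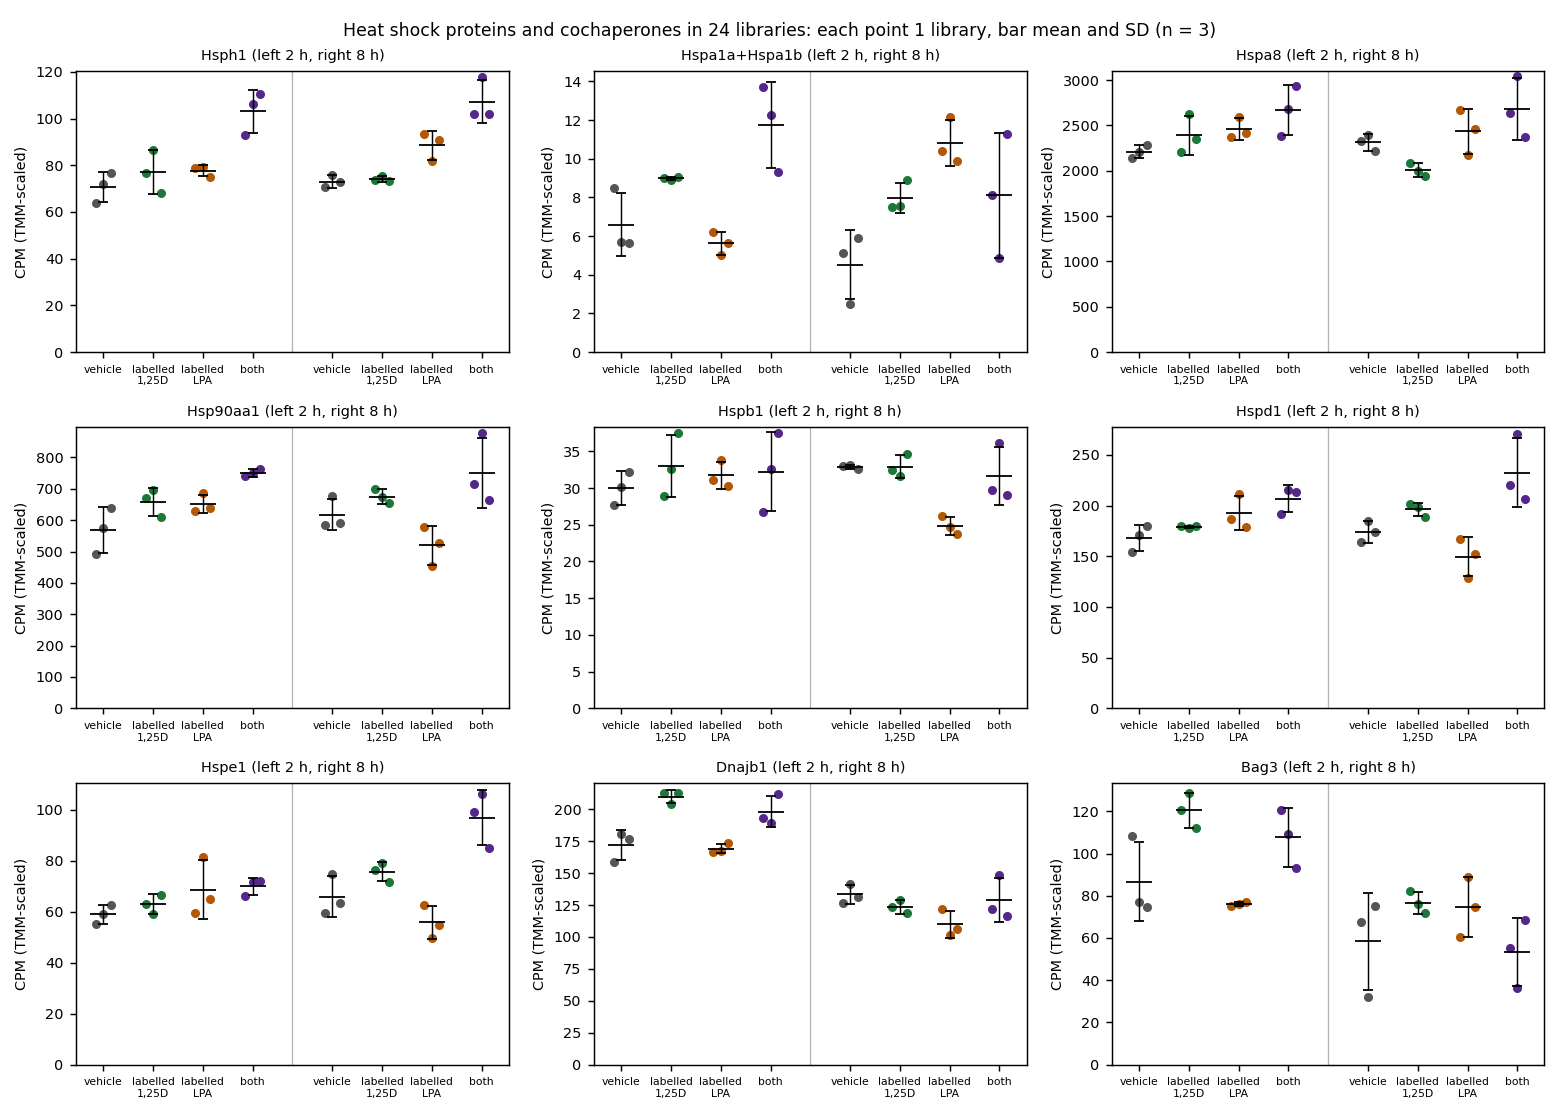
CPM of each member in the 24 libraries, scaled by the trimmed mean of M-values (TMM), with 1 point per library and a bar for the mean and SD of each group of 3, the 2 h groups left of the line. Hsph1 is highest with both agents at both times, between 92.9 and 118 CPM, while Bag3 and the summed HSP70 pair scatter most within groups.

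The inducible HSP70 pair rose over vehicle at 2 h with both agents. Summed, Hspa1a and Hspa1b were 8.50, 5.68 and 5.62 CPM in vehicle at 2 h and 13.7, 12.3 and 9.30 CPM with both agents. The libraries labelled 1,25D had 9.02, 8.90 and 9.04 CPM, above vehicle in 3 of 3, and those labelled LPA 6.19, 5.03 and 5.65 CPM. The vehicle library at 8.50 CPM was replicate 1, the one with the lowest mitochondrial share. Against vehicle the sum rose by 0.83 ± 0.26 with both agents (adjusted p = 0.025). Leaving out vehicle replicate 2 or 3 or both-agent replicate 1 or 2 ended that call, at adjusted p from 0.073 to 0.103. Against the libraries labelled LPA the rise was 1.06 ± 0.26 (adjusted p = 0.0057), with no overlap and a call that held for Hspa1b in each of 12 alternatives. In the libraries labelled 1,25D the value against vehicle was 0.45 ± 0.26 (adjusted p = 0.30), and it was −0.23 ± 0.26 in those labelled LPA (adjusted p = 0.70). Both agents against the libraries labelled 1,25D gave 0.39 ± 0.25 (adjusted p = 0.75, 95% interval −0.14 to 0.91), which did not pass, although the libraries did not overlap.

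At 8 h the mean HSP70 level was highest in the libraries labelled LPA, though they overlapped those given both agents. The sum was 10.4, 12.1 and 9.89 CPM there, against 5.14, 2.51 and 5.90 CPM in vehicle and 7.51, 7.58 and 8.89 CPM in the libraries labelled 1,25D. With both agents it was 8.15, 4.87 and 11.3 CPM, the widest spread of any treated group, and it overlapped vehicle. Both agents against labelled LPA gave −0.41 ± 0.25 (adjusted p = 0.26), which did not pass. All 3 treatments passed against vehicle: 1.25 ± 0.26 labelled LPA (adjusted p = 0.0024), 0.82 ± 0.26 labelled 1,25D (adjusted p = 0.039) and 0.84 ± 0.27 with both agents (adjusted p = 0.031). Vehicle replicate 2, with the highest mitochondrial share, had the lowest HSP70 level of all 24 libraries. Without it the rise of Hspa1b labelled LPA was 0.96 (adjusted p = 0.019), while the others fell below the threshold, at 0.54 labelled 1,25D (adjusted p = 0.20) and 0.55 with both agents (adjusted p = 0.15). Without both-agent replicate 3 the latter was 0.52 (adjusted p = 0.24), and without both-agent replicate 1 or vehicle replicate 1 its adjusted p was 0.074 and 0.051. The call labelled 1,25D was also lost without vehicle replicate 1 or any of its own 3 libraries, at adjusted p from 0.054 to 0.128. In a fit of the compared groups alone none of the 3 passed. The part of the mitochondrial share in these values was not tested.

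Combined treatment gave less HSP70 RNA at 8 h than the single effects would add up to on the log2 scale. The interaction, both agents minus each single treatment plus vehicle, was −1.23 ± 0.37 for the sum (adjusted p = 0.048) and −1.25 ± 0.37 for Hspa1b (adjusted p = 0.048). It was 1 of 3 interactions called among the 9 members at 8 h, where 7.68% of all genes were called, and the call for Hspa1b was lost in 11 of 18 alternatives. Leaving out any of 9 of the 12 libraries ended it, vehicle replicate 1 or 2, any labelled 1,25D, labelled LPA replicate 2 or 3, or both-agent replicate 1 or 2, with values from −1.33 to −0.95 and adjusted p from 0.051 to 0.176. At 2 h the interaction of the sum was 0.62 ± 0.37 (adjusted p = 0.996). No member's interaction was called at 2 h, where 0.0365% of all genes were, 1 member reached an unadjusted p under 0.05 (Hsph1, 0.031), and DESeq2 called 0. The effect in the libraries labelled LPA was larger at 8 h than at 2 h by 1.49 ± 0.37 for the sum (adjusted p = 0.021) and 1.49 ± 0.37 for Hspa1b (adjusted p = 0.022). Hspa1b was the only member called for that difference, with 6.76% of all genes, and the call was lost in 6 of 18 alternatives, at adjusted p from 0.051 to 0.075: the compared groups alone, or without vehicle replicate 1 or labelled LPA replicate 2 or 3 at 2 h, or replicate 2 of either group at 8 h.

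Hspa8 encodes HSC70, the constitutive counterpart of inducible HSP70, and its range was narrow, 1942 to 3049 CPM over all libraries. At 2 h it was 2145, 2203 and 2287 CPM in vehicle and 2380, 2686 and 2930 CPM with both agents, which did not overlap. The difference of 0.27 ± 0.10 just missed the threshold (adjusted p = 0.052). DESeq2 placed it past the threshold at 0.032, as did leaving out both-agent replicate 1 (0.34, adjusted p = 0.023). At 8 h, vehicle had 2328, 2393 and 2216 CPM, the libraries labelled 1,25D 2089, 1993 and 1942 CPM and those given both agents 2641, 3049 and 2369 CPM. Both agents exceeded the libraries labelled 1,25D by 0.42 ± 0.10 (adjusted p = 0.0061), and 3 members passed in this comparison, all higher, where 9.18% of all genes did. Without both-agent replicate 2, the library highest in Hspa8, the difference was 0.31 (adjusted p = 0.069). Against vehicle, both agents gave 0.22 ± 0.10 (adjusted p = 0.14) and the libraries labelled 1,25D −0.20 ± 0.10 (adjusted p = 0.155), with no overlap in the latter.

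Hsp90aa1 encodes the inducible isoform of cytosolic HSP90. It was 493, 574 and 640 CPM in vehicle at 2 h and 739, 749 and 764 CPM with both agents, a tight group above all 3 vehicle libraries. The rise was 0.40 ± 0.10 (adjusted p = 0.0078), or 1.32-fold. Without vehicle replicate 1, the lowest library, it was 0.30 (adjusted p = 0.087), and with counts scaled by transcript length 0.28 (adjusted p = 0.23). At 8 h the level was 586, 676 and 592 CPM in vehicle, 577, 455 and 526 CPM labelled LPA, and 714, 876 and 663 CPM with both agents. Both agents exceeded the libraries labelled LPA by 0.53 ± 0.10 (adjusted p = 8.8e-04) with no overlap in CPM. In TPM both-agent replicate 1, at 371, lay below labelled LPA replicate 1, at 398. Against vehicle the difference fell short of the threshold, at 0.28 ± 0.10 (adjusted p = 0.067). It passed without vehicle replicate 2 or both-agent replicate 3 (0.35 in each case, adjusted p = 0.038 and 0.040). The libraries labelled LPA stood below vehicle in 3 of 3, at −0.25 ± 0.10 (adjusted p = 0.11), and without labelled LPA replicate 1 the value passed at −0.36 (adjusted p = 0.036).

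The mitochondrial pair Hspd1 and Hspe1 stood together at 8 h. Hspd1 was 164, 185 and 174 CPM in vehicle, 201, 198 and 189 CPM labelled 1,25D, 167, 129 and 152 CPM labelled LPA and 220.2, 270.5 and 207 CPM with both agents. Hspe1 was 59.5, 74.9 and 63.3 CPM in vehicle, 76.5, 79.1 and 71.5 CPM labelled 1,25D, 62.8, 49.9 and 54.8 CPM labelled LPA and 99.1, 106 and 85.0 CPM with both agents. For both genes the order of the group means was labelled LPA, vehicle, labelled 1,25D and both agents, and the libraries given both agents overlapped no other group in CPM. In TPM Hspd1 was 108.2 in both-agent replicate 3 and 108.8 in labelled 1,25D replicate 1. Over vehicle, both agents raised Hspd1 by 0.42 ± 0.10 (adjusted p = 0.0038) and Hspe1 by 0.56 ± 0.11 (adjusted p = 0.0010). The Hspe1 call held in each of 12 alternatives, and that of Hspd1 in 11, with 0.096 in a fit of the 2 groups alone.

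Against the libraries labelled LPA at 8 h the pair showed the widest gaps of any member, 0.64 ± 0.10 for Hspd1 (adjusted p = 7.9e-05) and 0.79 ± 0.11 for Hspe1 (adjusted p = 3.0e-05). Both held in each of 12 alternatives. In this comparison 5 of 9 members passed, all higher with both agents (Hsph1, Hsp90aa1, Hspb1, Hspd1 and Hspe1), where 22.9% of all genes passed and 14% were higher. Over the libraries labelled 1,25D, Hspe1 was higher by 0.35 ± 0.11 (adjusted p = 0.048), and the value of 0.24 ± 0.10 for Hspd1 did not pass (adjusted p = 0.12). That Hspe1 call was fragile, lost in 9 of 12 alternatives and at 0.054 with the replicate number as a block. The interaction at 8 h was 0.46 ± 0.14 for Hspd1 (adjusted p = 0.048) and 0.59 ± 0.16 for Hspe1 (adjusted p = 0.040), so both agents gave more of either RNA than the single effects added up to on the log2 scale. These calls were lost in 10 and 9 of 18 alternatives, and without both-agent replicate 2 the values were 0.34 (adjusted p = 0.19) and 0.52 (adjusted p = 0.16). Without vehicle replicate 2 they were 0.42 (adjusted p = 0.14) and 0.50 (adjusted p = 0.12).

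Labelled LPA, the values against vehicle were −0.22 ± 0.10 for Hspd1 (adjusted p = 0.14) and −0.24 ± 0.11 for Hspe1 (adjusted p = 0.16), and without labelled LPA replicate 1 they passed at −0.34 and −0.36 (adjusted p = 0.036 and 0.048).

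At 2 h the values of the pair were smaller. Hspd1 was 154, 171 and 179 CPM in vehicle and 191, 215 and 213 CPM with both agents, a rise of 0.30 ± 0.10 (adjusted p = 0.035). Without vehicle replicate 1 it was 0.23 (adjusted p = 0.19), and leaving out vehicle replicate 2 or both-agent replicate 2 or 3 also ended the call, at adjusted p from 0.072 to 0.128. Hspe1 was 55.3, 59.0 and 62.8 CPM in vehicle and 66.0, 71.8 and 71.9 CPM with both agents, again without overlap, at 0.24 ± 0.11 (adjusted p = 0.14). Annotated pseudogenes named for Hspd1 (5) and Hspe1 (6) held counts equal to 0.0317% and 0.0307% of those of the genes.

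**Figure D3:**
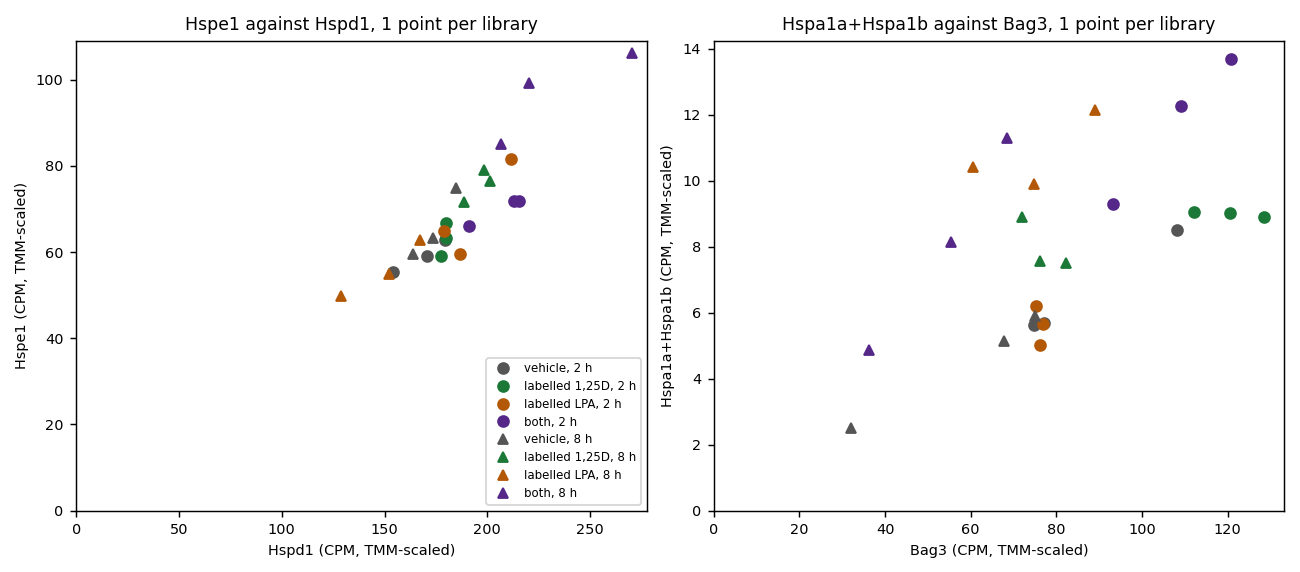
Hspe1 against Hspd1 (left) and the summed HSP70 pair against Bag3 (right), in TMM-scaled CPM with 1 point per library, circles for 2 h and triangles for 8 h. On the left, the 3 libraries given both agents at 8 h lie at 85.0 to 106 CPM of Hspe1, above all others, and on the right vehicle replicate 2 at 8 h lies lowest, at 32.1 CPM of Bag3.

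Hspb1 encodes HSP27, a small heat shock protein that holds unfolded clients and binds actin filaments. Of the 6 comparisons with vehicle it was called in 1, the libraries labelled LPA at 8 h. There it was 26.2, 24.7 and 23.7 CPM, below the 32.6 to 33.1 CPM of vehicle and, in CPM, below every other library of the series. In TPM replicate 2 of these libraries, at 43.8, lay above both-agent replicate 1 at 2 h, at 43.4. The fall was −0.40 ± 0.11 (adjusted p = 0.019), or to 0.756 of vehicle. Leaving out labelled LPA replicate 3 gave −0.37 (adjusted p = 0.081), and leaving out replicate 2 gave −0.43 (adjusted p = 0.051). With both agents it was 29.7, 36.2 and 29.0 CPM at 8 h, above the libraries labelled LPA by 0.35 ± 0.11 (adjusted p = 0.027), a call lost without labelled LPA replicate 2 or 3 (0.077 and 0.098) or both-agent replicate 2 (0.195). The effect labelled LPA at 8 h minus that at 2 h was −0.49 ± 0.16 for Hspb1 (adjusted p = 0.061), which did not pass.

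Dnajb1 encodes HSP40, the J-domain partner that hands clients to HSP70. Its level depended on the time. In vehicle it was 158, 181 and 177 CPM at 2 h and 127, 142 and 132 CPM at 8 h, a fall of −0.37 ± 0.08 (adjusted p = 0.0044) without overlap. It was the 1 member called between the vehicle groups, where 14.6% of all genes were. In a fit of the vehicle groups alone the adjusted p was 0.079. Treatment groups at 8 h also lay below those at 2 h, at 101 to 148 CPM against 166 to 213 CPM. At 2 h the libraries labelled 1,25D had 213, 204 and 213 CPM, all above vehicle, a rise of 0.29 ± 0.08 (adjusted p = 0.023). The call was lost without vehicle replicate 1 (0.22, adjusted p = 0.16) and without labelled 1,25D replicate 1 or 3 (0.071 and 0.061). Both agents gave 194, 189 and 212 CPM, at 0.20 ± 0.08 (adjusted p = 0.093). At 8 h the libraries labelled LPA had 122, 101 and 106 CPM, below each vehicle library, a fall of −0.28 ± 0.08 (adjusted p = 0.033) that was lost without vehicle replicate 2 or labelled LPA replicate 2 or 3, at adjusted p from 0.112 to 0.154. The effect labelled 1,25D at 8 h minus that at 2 h was −0.40 ± 0.12 (adjusted p = 0.064), which did not pass. No member was called for this difference, where 4.17% of all genes were, with 2 at an unadjusted p under 0.05 and 1 called by DESeq2. For the effect of both agents, 0 members were called between the times, with 1 at an unadjusted p under 0.05 and 0 by DESeq2, where 9.68% of all genes were.

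Bag3 encodes a cochaperone that releases nucleotide from HSP70 and links it to small heat shock proteins and selective autophagy. It passed the test in none of the 16 comparisons by edgeR's quasi-likelihood test, although among the 9 tested members only Hspa1b spanned a wider range relative to its lowest library. It ran from 32.1 to 128 CPM over the 24 libraries. At 2 h the libraries labelled 1,25D had 121, 128 and 112 CPM and those given both agents 121, 109 and 93.1 CPM. The libraries labelled LPA had 75.2, 76.2 and 76.9 CPM and vehicle 108, 77.1 and 74.9 CPM, so vehicle replicate 1 lay within the range of the libraries given both agents. The value labelled 1,25D was 0.47 ± 0.23 (adjusted p = 0.21) without overlap. Against the libraries labelled LPA both agents gave 0.50 ± 0.23 (adjusted p = 0.145), also without overlap. In fits of the compared groups alone these passed, at 0.031 and 8.5e-04.

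At 8 h Bag3 was 67.8, 32.1 and 75.1 CPM in vehicle, 82.3, 76.1 and 71.9 CPM labelled 1,25D, 60.6, 89.0 and 74.9 CPM labelled LPA and 55.4, 36.4 and 68.4 CPM with both agents. The value of the interaction was −0.88 ± 0.33 (adjusted p = 0.073), of the same sign as for Hspa1b. With no filter on low counts several Bag3 values passed, among them this interaction (adjusted p = 7.7e-08) and 1,25D-labelled against vehicle at 2 h (2.2e-04). The interaction also passed with DESeq2 (0.032) and without vehicle replicate 3, labelled LPA replicate 1 or both-agent replicate 3 (0.027, 0.044 and 0.027). Vehicle at 8 h against 2 h gave −0.57 ± 0.23 (adjusted p = 0.11). Fewer cells that express a gene and less RNA per cell cannot be told apart in such bulk libraries.

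Bag3 and Hspa1b had the widest scatter, with mean within-group coefficients of variation of 17.2% and 19.4%, against 6.33% to 9.26% for the other 7 tested members. The library lowest in Bag3 was also the lowest in Hspa1b in 5 of 8 groups, and the highest in both in 5 of 8. For the summed HSP70 pair these were 4 of 8 and 5 of 8. With 3 libraries in a group, some such matches come about by chance. Hspa1b was highest in the library with the lowest mitochondrial share in 6 of 8 groups, and Bag3 in 4 of 8. The reverse, lowest in the library with the highest share, held in only 3 of 8 groups for Hspa1b and 2 of 8 for Bag3. For Hspe1, the lowest library of a group was also the lowest in Hspd1, in Hsp90aa1 and in Dnajb1 in 7 of 8 groups each. It was the lowest in Hspa8 in 6 of 8, in Hsph1 in 5 of 8 and in Hspb1 in 3 of 8. The highest library was shared with Hspe1 in 7 of 8 groups for Hsph1 and for Hspb1. It was shared in 6 of 8 for Hspd1, Hsp90aa1 and Hspa8 and in 5 of 8 for Dnajb1. The inducible HSP70 gene Hspa1b shared the lowest library with Hspe1 in 0 of 8 groups and the highest in 0 of 8, and the summed pair in 1 of 8 each. Across the 8 group means Pearson's r was 0.95 for Hsp90aa1 and Hspd1, 0.93 for Hspd1 and Hspe1, 0.82 for Hsph1 and Hspa8 and 0.76 for Dnajb1 and Bag3. For Hspa1b and Hspd1 it was 0.03. These are descriptions over 8 points that share libraries and scaling.

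By pattern over the 8 group means, among 9992 genes that averaged at least 5 CPM, the genes most like Hsph1 were Dse (r = 0.93), Ptchd4 (0.92), Cyld (0.92), Slc25a30 (0.90) and Smox (0.90). Dse, which encodes dermatan sulfate epimerase, went from 80.7 CPM in vehicle to 94.1 CPM with both agents at 2 h and from 79.7 to 105 CPM at 8 h. Those most like the summed HSP70 pair were Rusc2 (0.99), Pkd2 (0.98), Map4k4 (0.98), Usp24 (0.97) and Abhd17c (0.97). Map4k4, a stress-activated kinase gene, was 84.1 CPM in vehicle at 2 h, 154 CPM with both agents, 130.5 CPM labelled 1,25D and 79.8 CPM labelled LPA, and 58.0, 111, 106 and 126 CPM in that order at 8 h, the same order of group means as the pair at both times. They were picked by their likeness out of many genes, so the correlations carry no test.

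Other chaperone genes were described by 9 lists of 81 genes, of which 80 were tested. With both agents, 15 rose and 6 fell at 2 h, and 19 rose and 5 fell at 8 h, out of 80, where 9.88% and 9.54% of all genes rose. The median log2 fold change of the 80 was 0.060 at 2 h and 0.12 at 8 h, against 0.0044 and 0.025 over all genes. Of all genes 10% and 7.25% fell in these comparisons. In the libraries labelled 1,25D, 4 of 80 rose and 4 fell at 2 h, where 7.06% of all genes rose and 6.85% fell, and 5 rose and 7 fell at 8 h, where 7.89% rose and 8.32% fell. In those labelled LPA none of the 80 passed at 2 h, where 0.785% of all genes did, and 1 rose and 7 fell at 8 h, where 6.62% rose and 5.38% fell. The median over the 80 was −0.12 in that comparison, and both agents were higher than the libraries labelled LPA at 8 h in 39 of the 80 and lower in 2, where 14% of all genes were higher and 8.91% lower.

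The cytosolic chaperonin, which folds actin and tubulin, and prefoldin, which delivers clients to it, made up a list of 14. Of these, 5 rose and 0 fell with both agents at 2 h and 6 rose and 0 fell at 8 h, with medians of 0.19 and 0.25. For this and the next lists, the shares over all genes with both agents were 9.88% higher and 10% lower at 2 h. At 8 h they were 9.54% higher and 7.25% lower. Pfdn4 had the largest rise at 2 h, 0.35 ± 0.11 (adjusted p = 0.031), a call lost on leaving out any 1 of the 6 libraries (adjusted p from 0.066 to 0.116), and the chaperonin subunit gene Cct6a at 8 h, 0.43 ± 0.08 (adjusted p = 6.0e-04). In the list of 7 mitochondrial chaperones and proteases, 1 rose at 2 h and 4 at 8 h, with the matrix protease gene Clpp at 0.38 ± 0.09 (adjusted p = 0.0046) leading at 8 h. Of 10 other HSP90 genes and HSP90 cochaperones, 3 rose and 2 fell at 2 h and 3 rose at 8 h, where the immunophilin gene Ppid led at 0.39 ± 0.08 (adjusted p = 0.0010). Cct6a, Clpp and Ppid fell short of the threshold at 8 h in a fit of the 2 groups alone, at 0.057, 0.090 and 0.058. Among 13 chaperones of the endoplasmic reticulum there was 1 riser at 2 h and 1 riser and 1 faller at 8 h, near the shares over all genes.

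**Figure D4:**
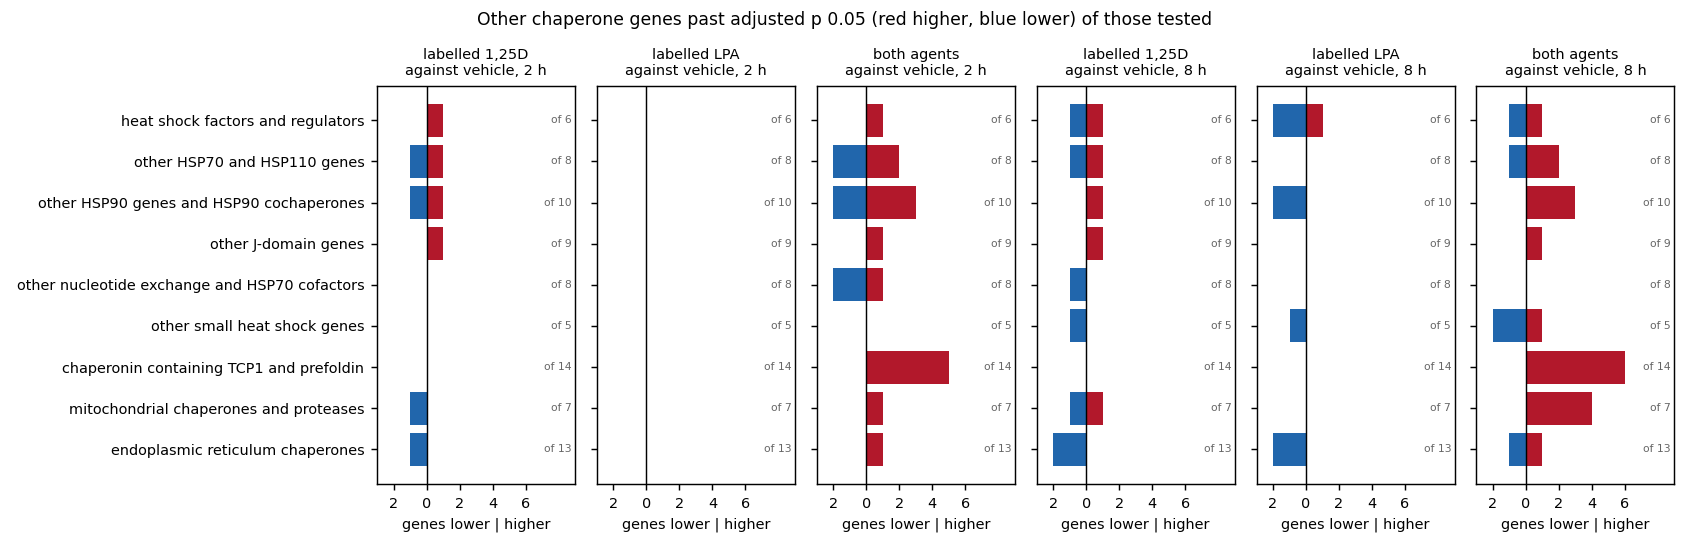
Number of genes past the adjusted threshold in each of the 9 lists of other chaperone genes, higher to the right in red and lower to the left in blue, for each treatment against vehicle at 2 h and 8 h, with the number tested at the right of each row. With both agents at 8 h the chaperonin and prefoldin list has 6 higher of 14 and the mitochondrial list 4 of 7, where 9.54% of all genes were higher.

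Some genes of these lists had larger fold changes than the members had in the same comparison. Ier5, an immediate early gene whose product is known to promote heat shock factor 1 activity, rose from 22.8 CPM in vehicle at 2 h to 60.2 CPM labelled 1,25D (1.40 ± 0.23, adjusted p = 1.6e-04) and 69.2 CPM with both agents (1.60 ± 0.23, adjusted p = 2.4e-05). At 8 h vehicle stood at 11.9 CPM, a fall of −0.94 ± 0.23 from 2 h (adjusted p = 0.0083), and the treated groups at 22.9 to 24.6 CPM, each higher than vehicle (adjusted p from 0.0025 to 0.0080). In fits of the compared groups alone these 8 h calls were lost (0.118 to 0.182), and the fall in vehicle was lost without vehicle replicate 1 at 2 h (−0.74, adjusted p = 0.055). The J-domain gene Dnajb4 rose from 46.9 CPM to 103 CPM labelled 1,25D (1.14 ± 0.10, adjusted p = 4.5e-08) and 122 CPM with both agents (1.39 ± 0.10, adjusted p = 1.5e-09) at 2 h. Its effect was then lower at 8 h than at 2 h by −1.24 ± 0.14 and −1.25 ± 0.14. The 2 h calls of both genes held in each of 12 alternatives.

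The HSP110 gene Hspa4 rose with both agents at 8 h from 146 to 220.0 CPM (0.59 ± 0.08, adjusted p = 7.5e-06), and the ribosome-associated J-domain gene Dnajc2 from 35.8 to 53.1 CPM (0.57 ± 0.11, adjusted p = 8.2e-04). Hspb7, a small heat shock gene of heart and muscle, went from 0.237 to 1.25 CPM (2.39 ± 0.54, adjusted p = 0.0031), a low level at either end. Other genes went down. Hspa2, an HSP70 gene best known from testis, fell with both agents at 2 h from 18.5 to 11.7 CPM (−0.66 ± 0.13, adjusted p = 5.9e-04). Cryab, which encodes alpha-B crystallin, fell at 8 h from 92.6 to 57.3 CPM labelled 1,25D (−0.69 ± 0.10, adjusted p = 3.9e-05) and to 69.1 CPM labelled LPA (−0.42 ± 0.10, adjusted p = 0.0049). With both agents at 8 h it fell to 53.5 CPM (−0.79 ± 0.10, adjusted p = 3.0e-06), a call that held in each of 12 alternatives, and the small heat shock gene Hspb6 fell from 69.7 to 52.9 CPM (−0.40 ± 0.10, adjusted p = 0.0068, and 0.075 in a fit of the 2 groups alone). These 2 values were chosen after they were seen. With them, 2 of the 5 tested small heat shock genes fell with both agents at 8 h and Hspb7 rose, where 7.25% of all genes fell and 9.54% rose. Hsp90ab1, the constitutive HSP90 gene, fell labelled LPA at 8 h by −0.28 ± 0.06 (adjusted p = 0.0056), where Hsp90aa1 had a value of −0.25 ± 0.10 that did not pass. The calls labelled LPA of Cryab and Hsp90ab1 were lost in a fit of the 2 groups alone (0.101 and 0.159).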

How the data were processed

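The authors deposited, per the file headers, a table of transcripts for each library with estimated counts, which need not be whole and are not scaled between libraries, and TPM, which the authors normalised for transcript length and depth. No quantifier is named in the sources used here. The submitters' processing notes list build mm39. Transcripts were assigned to genes with GENCODE M21 (build GRCm38, used for names only), which matched 99.4% to 99.6% of counts. Counts were summed per gene and rounded. Groups came from the sample titles.

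The test was edgeR 4.0.16 in R 4.3.3 (quasi-likelihood F test, robust, TMM scaling, filterByExpr with a minimum count of 10) with all 8 groups in 1 fit and no covariate, and Benjamini-Hochberg adjustment over 16424 genes in each of 16 comparisons. It was tested on simulated data for both agents against vehicle at 2 h over 16020 genes, and recovered 63 of 100 genes changed 1.5-fold and 95 of 100 changed 2-fold, with 14 unchanged genes called. A second fit replaced Hspa1a and Hspa1b by their sum. SE is the absolute log2 fold change over the square root of F. The members and gene lists were chosen with earlier results of these data known. All members are named, and of each list the tested gene of largest change where it passed. The genes most alike were ranked by correlation of log2(CPM + 0.5) over group means.

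No 2 libraries of a group matched within counting error (chi-square over its degrees of freedom was at least 6.54). Same-numbered libraries deviated together, with each r over 0.1, in 1 of 11 pairs of groups (both agents and vehicle at 8 h, r = 0.16, 0.63 and 0.49), and there the replicate block changed no member's call. Promoter sequences are RefSeq's, on GRCm38.p6, and were read from its table, not from the libraries. The alternatives were median-of-ratios scaling, no filter, DESeq2 1.42.0, the compared groups alone, the replicate block, length-scaled counts and leaving out each library.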

Additional observations from a re-analysis of the deposited data

Results flagged for a closer look

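The effect of one agent on 3 members differed with the presence of the other at 8 h by the interaction test. The interaction was −1.25 for Hspa1b and −1.23 for the sum of Hspa1a and Hspa1b, where the mean of the sum was 4.52 CPM in vehicle and 8.11 CPM with both agents, and the libraries labelled 1,25D and LPA had 7.99 and 10.8 CPM. It was 0.46 for Hspd1, with means of 174 and 232 CPM in vehicle and with both agents and 196 and 149 CPM labelled 1,25D and LPA, and 0.59 for Hspe1, with 65.9, 96.8, 75.7 and 55.8 CPM in that order. The values of the HSP70 pair and the mitochondrial pair thus departed from additivity on the log2 scale in opposite directions. These calls were fragile. Leaving out 1 library gave 0 to 7 members called for the interaction, in place of 3, and a fit of the compared groups alone gave 0. Of all genes, the main fit called 1262 (7.68%) and that of the compared groups alone 13.

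The effect labelled LPA on the HSP70 genes differed between the times. The difference of the effect at 8 h from that at 2 h was 1.49 for Hspa1b and 1.49 for the sum, which stood at 5.62 CPM labelled LPA and 6.60 in vehicle at 2 h, and at 10.8 and 4.52 CPM at 8 h. Leaving out 1 library gave 0 to 5 members called for this difference, in place of 1, where the main fit called 6.76% of all genes.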

How the results depend on the processing

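No called value of a member or named gene changed sign. Of 3162 recomputed values, 344 lost the threshold and 66 gained it. Fits of the compared groups alone, which have fewer libraries to estimate the spread, called 2 members labelled 1,25D at 2 h, 5 for both agents against labelled LPA at 2 h, 0 labelled 1,25D at 8 h, 1 labelled LPA at 8 h, 2 for both agents at 8 h, 2 for both agents against labelled LPA at 8 h, 0 for the interaction at 8 h, 0 between the vehicle groups and 1 for the time difference labelled 1,25D. Over all genes, the fits of the compared groups alone called 1935 labelled 1,25D and 4039 for both agents against labelled LPA at 2 h. Length-scaled counts called 0 labelled 1,25D, 2 with both agents and 0 for both agents against labelled 1,25D at 2 h, and 1 for the interaction at 8 h. The counts over all genes there were 1537, 2449, 90 and 440. With no filter, 2 passed labelled 1,25D at 8 h, 5 for the interaction at 8 h, 3 between the vehicle groups and 6 for the time difference labelled LPA. Over all genes 3186, 3094, 2451 and 3065 passed in these, in the same order. DESeq2 called 7 for the interaction at 8 h, 1 for the time difference labelled 1,25D and 5 for that labelled LPA. It called 3451, 945 and 2306 of all genes there, against 1262, 685 and 1110 in the main fit. Causes of these moves were not tested.

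Leaving out 1 library at a time gave at 2 h 0 to 1 labelled 1,25D, 0 labelled LPA, 2 to 4 with both agents, 0 to 1 for both agents against labelled 1,25D, 2 for both agents against labelled LPA and 0 for the interaction. At 8 h it gave 0 to 1, 1 to 6, 3 to 4, 1 to 3, 3 to 7 and 0 to 7 in the same order. The vehicle comparison had 1 to 2, and the time differences 0 labelled 1,25D, 0 to 5 labelled LPA and 0 to 1 with both agents. Counts over all genes are not given for these fits. In the other pairs of groups the replicate numbers are only a shared number (r from −0.52 to 0.63 over all). The replicate block changed 1 member's call, Hspe1 for both agents against labelled 1,25D at 8 h (0.35, adjusted p = 0.054), leaving 2 of the 3.

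Over all genes, fits of the compared groups alone took the counts at 8 h from 2662 to 1287 labelled 1,25D, 1971 to 565 labelled LPA, 2758 to 988 with both agents, 3765 to 1263 for both agents against labelled LPA, 1507 to 807 against labelled 1,25D, 1262 to 13 for the interaction and 2393 to 413 between the vehicle groups. With no filter the count labelled LPA was 3006 and that of both agents against labelled 1,25D 2386. The interaction count was 440 with length-scaled counts and 3451 with DESeq2. At 2 h, with no filter, it went from 129 to 373 labelled LPA, from 126 to 258 for both agents against labelled 1,25D and from 6 to 88 for the interaction. The time differences ran from 373 to 1046 labelled 1,25D, 443 to 3065 labelled LPA and 743 to 1895 with both agents.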
